A study of Mus musculus with 4 samples.

Results

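Expression of 10 genes of the T cell and innate lymphoid lineages was followed in haematopoietic progenitors of mouse foetal liver. The genes were Gata3, Bcl11b, Thy1, Il2ra, Il2rb, Cd3e, Cd3g, Cd7, Zap70 and Ptcra. They were selected by name, as all probe sets annotated to exactly 1 of them, which gave 17 of the 45037 probe sets tested. A probe set is the group of short array probes that reports on 1 transcript. The samples were 1 array labelled HES1-GFP positive and 3 arrays labelled HES1-GFP negative, all of Hes1 GFP/WT genotype, from female embryos at E13.5. The cells had been sorted as lineage-negative, cKit-positive and Sca1-positive (LSK), a fraction rich in haematopoietic stem cells and multipotent progenitors. The GFP reporter sits at 1 allele of Hes1, a repressor of transcription that Notch signals induce, so every array, negative ones included, came from cells with 1 unmodified Hes1 allele. There was no array of Hes1 wild-type embryos among the 4.

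T cells arise when progenitors seed the thymus and receive Notch signals. Gata3 and Bcl11b are then switched on, the CD3 chains and the pre-T-cell receptor are assembled on the surface, and receptor signals pass through the kinase Zap70. Innate lymphoid cells and natural killer (NK) cells share Gata3, Thy1 and the interleukin 2 receptor beta chain with T cells but need no antigen receptor. Lineage-negative sorting usually removes cells with CD3 or other mature markers on their surface, although the labels do not list the antibodies used here.

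The arrays had median intensities of 74.7 to 76.1, so their overall brightness was nearly equal. Hes1 went against its label. It measured 6.57 log2 units in the positive-labelled array, against 8.78, 9.07 and 6.70 in negative replicates 1, 2 and 3. The groups are therefore called by their labels, and the difference of each of the 17 probe sets is given with and without negative replicate 3, whose Hes1 level lay next to that of the positive-labelled array. That array is the only one of its group, so it cannot be left out, and its spread is taken in limma to equal that of the negative arrays. Whether the negative samples are separate litters or sorts is not in the labels, so p-values measure only the spread between these samples, which may be technical. Precision is limited throughout by the number of arrays. Of 7 LSK markers measured, 4 lay above the negative range and 3 within it. Kit had log2 intensities of 10.13 in the positive-labelled array and 9.90, 9.72 and 9.68 in negative replicates 1, 2 and 3. Cd34 had 11.87 against 11.42, 10.80 and 11.70, so that both lay above. Mecom, at 9.44 against 9.62, 9.81 and 8.37, lay within the range. So did Procr, at 9.48 against 10.06, 9.77 and 8.54, and Slamf1. Ly6a, the gene of Sca1, was not among those measured.

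The 10 genes fell into a varying and a nearly level set. Gata3, Bcl11b, Thy1, Cd3g and Il2rb were lower in the positive-labelled array than in negative replicates 1 and 2 by over 1 log2 unit in at least 1 probe set each, and all lay within 0.74 log2 units of negative replicate 3. Cd7 varied in the same arrays over a smaller range. Cd3e, Zap70 and Ptcra spanned less than 1 log2 unit over the 4 arrays, and Il2ra was high in negative replicate 2 alone. None of the 17 probe sets passed limma over all 45037 probe sets, where the share called was 0.0% in each direction, and each had an adjusted p of 1.00. In bulk RNA, fewer cells of a type and less RNA per cell cannot be told apart.

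**Figure D1:**
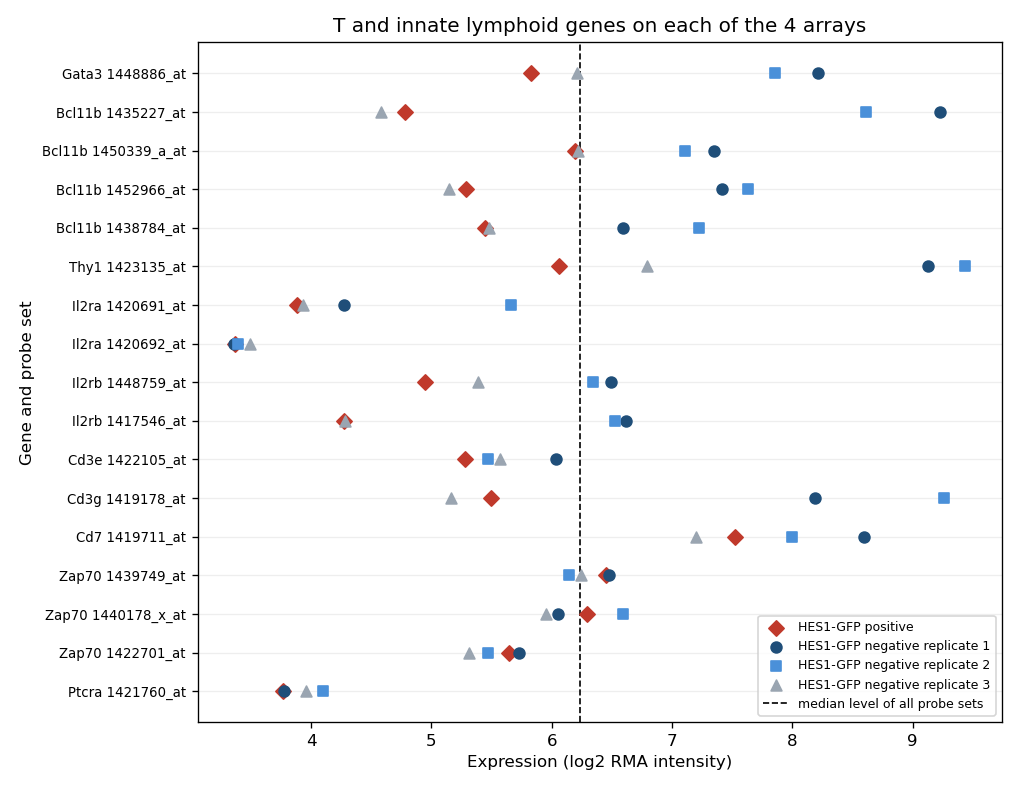
Log2 intensity (x axis) of the 17 probe sets of the 10 genes (y axis) on each of the 4 arrays, 1 symbol per array. The dashed line is the median level of all probe sets, 6.23. The positive-labelled array and negative replicate 3 lie together at the low end for Gata3, Bcl11b, Thy1, Il2rb and Cd3g, while the 4 arrays lie close together for Zap70 and Ptcra.

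Among the transcription factors, Gata3, a zinc finger factor needed for the first steps of T cell and innate lymphoid development, measured, on the log2 scale, 5.83 in the positive-labelled array, against 8.22, 7.85 and 6.21 in negative replicates 1, 2 and 3. Lowest of the 4 was the positive-labelled array, with negative replicate 3 next to it. The difference was -1.60 log2 units from the negative mean of 7.43 ± 1.07 (SD, n = 3), and had a limma adjusted p of 1.00. The standard error was 0.92. Without negative replicate 3 the difference was -2.21 log2 units, with a limma adjusted p of 0.574.

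Bcl11b, the zinc finger factor that fixes T cell commitment, was read by 4 probe sets. Probe set 1435227_at, the brightest on average, measured, on the log2 scale, 4.78 in the positive-labelled array, against 9.23, 8.61 and 4.58 in negative replicates 1, 2 and 3. This was the widest span of the 17 probe sets, 4.64 log2 units, and it lay within the negative group, since negative replicate 3 was the lowest array. On the linear scale the intensity was 27.4 in the positive-labelled array, against 599 in negative replicate 1, 391 in negative replicate 2 and 23.9 in negative replicate 3.

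The other Bcl11b probe sets had narrower spans. Probe set 1452966_at was at 5.29 in the positive-labelled array, against 7.41, 7.63 and 5.15 in negative replicates 1, 2 and 3. Probe set 1438784_at was at 5.44 against 6.59, 7.22 and 5.48. Probe set 1450339_a_at was at 6.19 against 7.35, 7.11 and 6.22. In all 4 probe sets negative replicates 1 and 2 were above the other arrays. Between the positive-labelled array and negative replicate 3 the gap was 0.20 log2 units or less in each of them. The differences from the negative mean were -2.70 log2 units for 1435227_at (standard error 2.12), -1.44 for 1452966_at, -0.99 for 1438784_at and -0.70 for 1450339_a_at, each with a limma adjusted p of 1.00. Without negative replicate 3 they were -4.14, -2.23, -1.46 and -1.04 log2 units in the same order, with limma adjusted p-values of 0.551 to 0.650. For 1438784_at the difference was -0.59 log2 units without negative replicate 2.

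Promoter sequences were at hand for 7 of the 10 genes, from RefSeq on GRCm38.p6, each 250 bases before to 50 after a start site. Those of Gata3 (chr2:9878551-9878850, minus strand) and Bcl11b (chr12:108003365-108003664, minus strand) are shown because both regulators were higher in negative replicates 1 and 2 than in the other arrays. Thy1, Cd3g and Il2rb were so too, and the pattern is not particular to this pair. Capitals mark matches on either strand to any of 6 short motifs bound by lymphoid regulators. These were the E-box letters CAGCTG or CAGGTG, the GATA letters GATAA, the RBPJ letters TGGGAA (RBPJ is the DNA-binding partner of Notch), the ETS letters GGAAG, the RUNX letters TGTGGT and the TCF letters CTTTGA. The RBPJ and ETS letters can overlap.
Gata3: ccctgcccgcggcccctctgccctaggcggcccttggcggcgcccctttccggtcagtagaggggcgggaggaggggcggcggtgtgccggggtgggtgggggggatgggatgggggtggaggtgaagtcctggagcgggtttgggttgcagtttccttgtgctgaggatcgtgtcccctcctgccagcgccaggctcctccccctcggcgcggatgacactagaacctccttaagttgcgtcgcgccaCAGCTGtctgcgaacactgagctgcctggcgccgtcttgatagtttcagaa
Bcl11b: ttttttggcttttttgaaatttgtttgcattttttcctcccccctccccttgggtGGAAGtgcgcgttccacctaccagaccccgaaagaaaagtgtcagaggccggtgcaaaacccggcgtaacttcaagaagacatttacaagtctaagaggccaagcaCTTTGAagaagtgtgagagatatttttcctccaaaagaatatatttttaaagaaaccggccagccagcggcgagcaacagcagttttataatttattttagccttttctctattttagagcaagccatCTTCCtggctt
The Gata3 window held 1 E-box match and no match to the other motifs, and the Bcl11b window held 2 ETS matches and 1 TCF match. Of all 32851 promoter windows of the same length, 32.9% held an E-box match, 25.4% a GATA match, 25.6% an RBPJ match, 71.4% an ETS match, 16.8% a RUNX match and 16% a TCF match. A match is only a description of the letters, and no match says only that they are not in this window.

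Thy1 and Cd7 encode surface molecules. Thy1, the glycoprotein CD90 found on mouse T cells, innate lymphoid cells and some progenitors, measured, on the log2 scale, 6.06 in the positive-labelled array, against 9.13, 9.44 and 6.79 in negative replicates 1, 2 and 3. Again the positive-labelled array was the lowest, 0.74 log2 units below negative replicate 3, which was the largest gap between these arrays among the 17 probe sets. The difference from the negative mean of 8.45 ± 1.44 (SD, n = 3) was -2.39 log2 units and had a limma adjusted p of 1.00. The standard error was 1.22. Without negative replicate 3 the difference was -3.22 log2 units, with a limma adjusted p of 0.551.

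Cd7, an immunoglobulin family protein of T and NK cells and early lymphoid progenitors, was at 7.52 in the positive-labelled array, against 8.59, 8.0 and 7.20 in negative replicates 1, 2 and 3. Here the positive-labelled array lay within the negative range, above negative replicate 3. The difference from the negative mean was -0.41 log2 units and had a limma adjusted p of 1.00. The standard error was 0.61. The difference was -0.78 without negative replicate 3 (limma adjusted p of 0.841) and -0.080 without negative replicate 1, so that negative replicate 1 carried most of it.

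The CD3 chains carry the signal of the T cell receptor, and the probe sets of the 2 chains among these genes differed in how far they varied. Cd3g, the gamma chain, measured, on the log2 scale, 5.50 in the positive-labelled array, against 8.19, 9.26 and 5.16 in negative replicates 1, 2 and 3. This put the positive-labelled array within the negative range, 0.33 log2 units above negative replicate 3. Its difference from the negative mean of 7.54 ± 2.13 (SD, n = 3) was -2.04 log2 units and had a limma adjusted p of 1.00. The standard error was 1.79. Without negative replicate 3 the difference was -3.23 log2 units, with a limma adjusted p of 0.598, and without negative replicate 2 it was -1.18 log2 units, with a limma adjusted p of 1.00.

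Cd3e, the epsilon chain, was at 5.28 in the positive-labelled array, against 6.03, 5.47 and 5.57 in negative replicates 1, 2 and 3. All 4 values were close, with the positive-labelled array the lowest: the arrays spanned only 0.75 log2 units, against 4.10 for Cd3g. The difference from the negative mean was -0.41 log2 units with a standard error of 0.31, or -0.47 without negative replicate 3, with limma adjusted p-values of 1.00 and 0.954 in that order. Without negative replicate 1 it was -0.24 log2 units. The third chain, Cd3d, was at 5.34 in the positive-labelled array and at 5.42, 5.51 and 5.82 in negative replicates 1, 2 and 3. Cd3g, Cd3d and Cd3e lie next to each other on chromosome 9 in the reference annotation. Over these arrays only the Cd3g probe set varied by more than 1 log2 unit. Cd3e and Cd3d, read by 1 probe set each, had means below the median level of all probe sets. Cd3e averaged 5.59, near the 5.50 and 5.16 of Cd3g in the positive-labelled array and negative replicate 3. A dim probe set can miss a change, so whether the genes or only the probes differed was not tested.

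The promoters of Cd3g (chr9:44980382-44980681, minus strand) and Cd3e (chr9:45009562-45009861, minus strand), on GRCm38.p6, are set side by side because probe sets of these neighbours differed in span. Capitals mark the same 6 motifs.
Cd3g: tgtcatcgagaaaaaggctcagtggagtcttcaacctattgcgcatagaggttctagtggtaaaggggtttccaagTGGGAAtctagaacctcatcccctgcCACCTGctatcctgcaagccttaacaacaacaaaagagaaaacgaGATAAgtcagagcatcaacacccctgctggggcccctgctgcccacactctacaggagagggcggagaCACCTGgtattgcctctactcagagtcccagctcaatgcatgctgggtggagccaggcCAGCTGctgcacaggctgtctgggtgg
Cd3e: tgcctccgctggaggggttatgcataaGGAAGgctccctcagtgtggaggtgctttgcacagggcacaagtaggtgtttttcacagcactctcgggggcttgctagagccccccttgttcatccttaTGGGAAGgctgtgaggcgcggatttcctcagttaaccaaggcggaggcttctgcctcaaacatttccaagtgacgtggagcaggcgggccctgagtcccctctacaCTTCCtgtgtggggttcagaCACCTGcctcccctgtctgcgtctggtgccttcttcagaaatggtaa
The Cd3g window held 3 E-box matches, 1 GATA match and 1 RBPJ match, and the Cd3e window held 1 E-box match, 1 RBPJ match and 3 ETS matches, of which 1 overlapped the RBPJ match. A GATA match was in the Cd3g window only, against 25.4% of all windows, and ETS matches in the Cd3e window only, against 71.4% of all windows. How the letters relate to the levels was not tested.

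Ptcra, the pre-T-cell receptor alpha chain made by thymocytes, was near the bottom of the scale on every array. It measured 3.77 log2 units in the positive-labelled array, against 3.77, 4.10 and 3.96 in negative replicates 1, 2 and 3. The positive-labelled array was the lowest, at -0.0065 log2 units from negative replicate 1, and the 4 arrays spanned 0.33 log2 units. The difference from the negative mean was -0.18 log2 units and had a limma adjusted p of 1.00. The standard error was 0.23. The difference was -0.26, -0.099 and -0.17 log2 units without negative replicates 1, 2 and 3.

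Zap70, the kinase that docks on phosphorylated CD3 chains, was read by 3 probe sets. Probe set 1439749_at was at 6.45 in the positive-labelled array, against 6.48, 6.14 and 6.24 in negative replicates 1, 2 and 3. Probe set 1440178_x_at, of a type whose probes can also match other transcripts, was at 6.30 against 6.05, 6.59 and 5.95, and probe set 1422701_at was at 5.65 against 5.72, 5.47 and 5.31. In all 3 the positive-labelled array lay within the negative range. The differences were 0.17, 0.10 and 0.14 log2 units in the same order, with standard errors of 0.24, 0.35 and 0.26 and a limma adjusted p of 1.00 each. They were 0.14, -0.027 and 0.047 log2 units in that order without negative replicate 3. Leaving out each negative replicate in turn gave 0.093 to 0.26 for 1439749_at, -0.027 to 0.30 for 1440178_x_at and 0.047 to 0.25 for 1422701_at.

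Among the interleukin 2 receptor chains, Il2rb, the signalling chain shared by the receptors for interleukins 2 and 15, had 2 probe sets that agreed in direction. Probe set 1448759_at measured, on the log2 scale, 4.95 in the positive-labelled array, against 6.49, 6.35 and 5.39 in negative replicates 1, 2 and 3. Probe set 1417546_at was at 4.27 against 6.62, 6.52 and 4.28. In both the positive-labelled array was the lowest, at -0.44 log2 units from negative replicate 3 in 1448759_at and -0.0065 in 1417546_at. The differences were -1.13 log2 units for 1448759_at and -1.53 for 1417546_at, with standard errors of 0.54 and 1.12 and a limma adjusted p of 1.00 each. Probe set 1448759_at had the lowest unadjusted limma p of the 17, 0.107. Without negative replicate 3 the differences were -1.47 and -2.30 log2 units, with limma adjusted p-values of 0.591 and 0.551.

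Il2ra, the alpha chain CD25 that marks thymic progenitors and activated T cells, was dim throughout. Probe set 1420691_at was at 3.89 in the positive-labelled array, against 4.27, 5.67 and 3.93 in negative replicates 1, 2 and 3, so that negative replicate 2 alone stood above the rest. Probe set 1420692_at was at 3.37 against 3.36, 3.39 and 3.49, with no array apart. The differences were -0.74 and -0.045 log2 units, with standard errors of 0.79 and 0.20 and a limma adjusted p of 1.00 each. For 1420691_at the difference was -0.22 without negative replicate 2 and -1.08 without negative replicate 3. For 1420692_at the differences without 1 negative replicate ran from -0.072 to -0.0076, with -0.0076 without negative replicate 3.

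**Figure D2:**
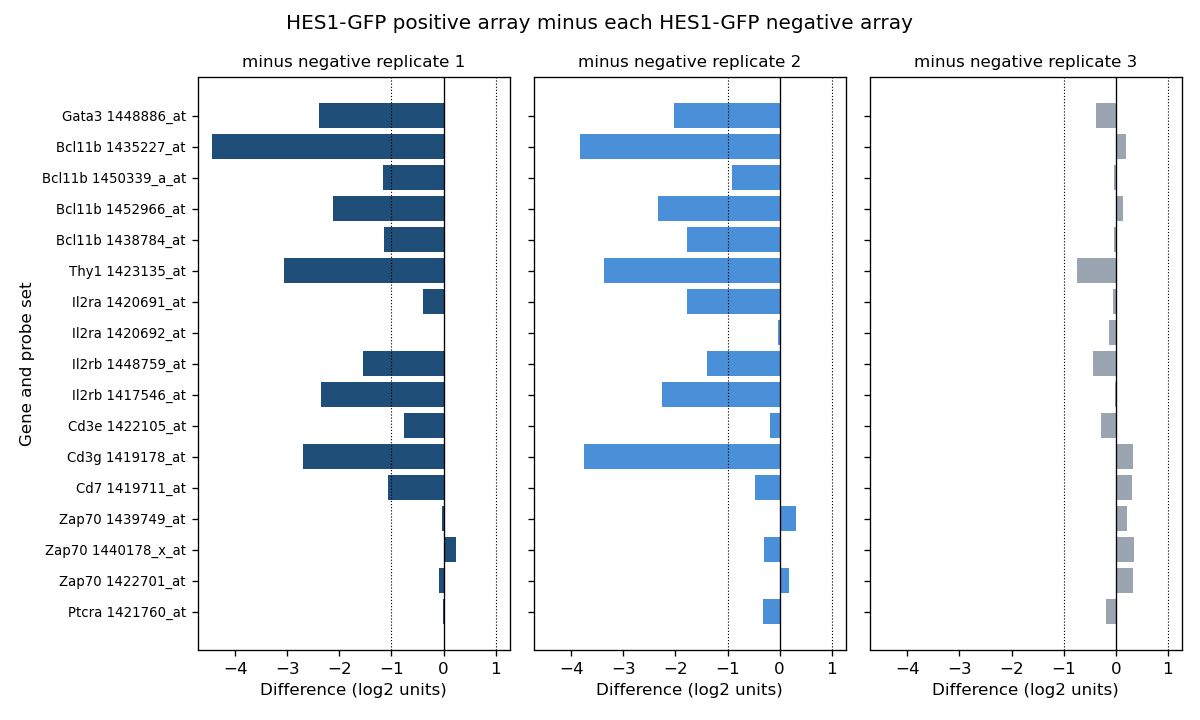
Difference in log2 intensity (x axis) between the HES1-GFP positive-labelled array and each HES1-GFP negative array, 1 panel per negative replicate and 1 bar per probe set (y axis); dotted lines mark 1 log2 unit either way. Bars for Bcl11b, Thy1 and Cd3g reach -2.69 to -4.45 log2 units against negative replicates 1 and 2 in their widest probe set, while no bar reaches 1 log2 unit against negative replicate 3.

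Counts over the 17 probe sets followed the single genes. The positive-labelled array was at least 1 log2 unit below negative replicate 1 in 10 probe sets of 6 genes, against 6.77% of all probe sets, and below negative replicate 2 in 9 probe sets of 6 genes, against 6.4% of all. Against negative replicate 3 the count was 0 of 17, where all probe sets gave 4.04%. In the other direction, at least 1 log2 unit higher in the positive-labelled array, the count was 0 against each of negative replicates 1, 2 and 3, where all probe sets gave 6.02%, 6.41% and 4.45%. The median difference over the 17 was -1.15 log2 units against negative replicate 1, -1.40 against negative replicate 2 and -0.031 against negative replicate 3. Over all probe sets these medians were 0.029, -0.012 and -0.023.

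**Figure D3:**
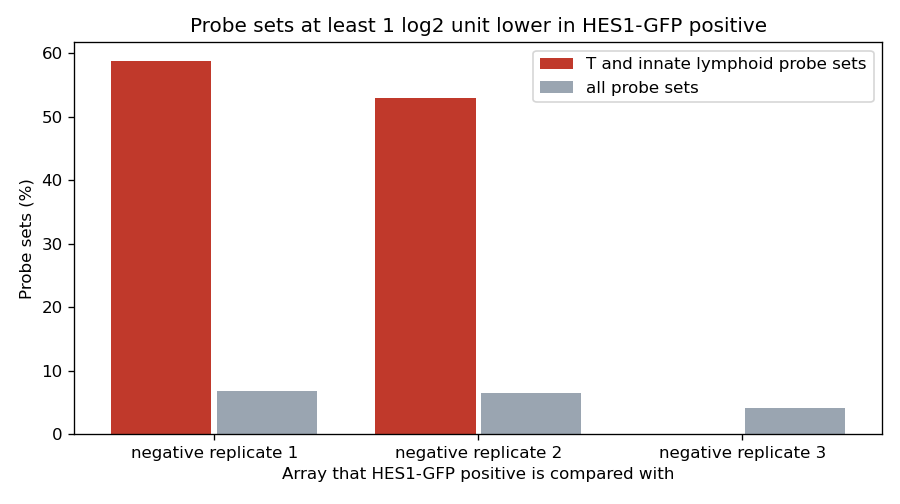
Percentage of probe sets (y axis) at least 1 log2 unit lower in the HES1-GFP positive-labelled array than in each HES1-GFP negative array (x axis), for the 17 T and innate lymphoid probe sets and for all 45037 probe sets. The 17 stand at 58.8% and 52.9% against negative replicates 1 and 2 and at 0 against negative replicate 3, while all probe sets stand at 6.77%, 6.4% and 4.04%.

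The same distance was found inside the negative group. Negative replicate 3 was at least 1 log2 unit below negative replicate 1 in 10 of the 17 probe sets (6.82% of all) and below negative replicate 2 in 8 (6.61% of all). Of the 3 negative arrays, replicate 3 was the closest to the positive-labelled array in 11 of the 17, against 39.7% of all probe sets. The span over the 4 arrays was at least 1 log2 unit in 11 of the 17 (29.0% of all) and at least 2 log2 units in 6 (7.5% of all). The spread of the negative arrays enters every standard error given above. It was wide for some probe sets, such as Bcl11b 1435227_at (SD 2.52), and narrow for others, such as Ptcra (SD 0.16).

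Read by the labelled groups, the positive-labelled array was lower than all 3 negative arrays in 9 of the 17 probe sets (23.6% of all), higher than all 3 in 0 (23.2% of all) and within their range in 8. It lay at least 1 log2 unit below that range in 0 (0.631% of all) and at least 1 log2 unit above it in 0 (1.35% of all). The difference from the negative mean was at least 1 log2 unit lower in 7 probe sets of 5 genes (3.65% of all), namely Gata3, Bcl11b, Thy1, Cd3g and Il2rb. limma gave 0 of the 17 at an unadjusted p under 0.05, where all probe sets gave 3.09% higher and 1.43% lower.

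Without negative replicate 3 the positive-labelled array lay at least 1 log2 unit below the range of the remaining negative arrays in 8 of the 17 probe sets, of Gata3, Bcl11b, Thy1, Cd3g and Il2rb, against 2.64% of all. Fewer arrays give a narrower range by construction. Negative replicate 3 was also the closest to the positive-labelled array in 11 of the 17. Leaving it out of such probe sets enlarges the difference by construction, and in those of these 5 genes it narrowed the spread that limma uses. limma then gave 9 of the 17 as lower at an unadjusted p under 0.05, against 3.29% of all, and 0 at an adjusted p under 0.05.

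Level set a further limit. The mean of the 4 arrays was above the median of all probe sets in 8 of the 17, in probe sets of Gata3, Bcl11b, Thy1, Cd3g, Cd7 and Zap70. Both probe sets of Il2ra and of Il2rb and those of Cd3e and Ptcra were below it, and no detection calls were used here. A level near the bottom of the scale does not show that a transcript is absent.

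Other genes of the same pathways were read from lists, with the probe set of the highest mean for each gene, and none of them passed limma at an adjusted p under 0.05. Over all 18193 genes, 23.0% had the positive-labelled array below the negative range and 23.6% above it. At least 1 log2 unit below negative replicate 1, 2 or 3 lay 5.34%, 5.44% and 3.23% of all genes. The median difference over all genes was -0.0012 log2 units. From each list the 3 genes with the largest absolute moderated t are given with their levels, so these genes do not stand for their list.

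Of 14 factors of T lineage specification measured, 5 lay below the negative range, 1 above it and 8 within it; their median difference was -0.41 log2 units. Levels were at least 1 log2 unit below negative replicate 1 in 7 of the 14 and below negative replicate 2 in 7, but below negative replicate 3 in 0. Hes1, whose level set negative replicate 3 apart above, is among the 14. It is counted in the 5 below the range and in both counts of 7. The median was -0.26 without negative replicate 1, -0.14 without negative replicate 2 and -0.87 without negative replicate 3. Notch1, the receptor that starts the T cell programme, was at 10.50 in the positive-labelled array, against 11.75, 11.74 and 10.85 in negative replicates 1, 2 and 3. Lef1, a partner of the Wnt pathway in thymocytes, was at 7.17 against 8.44, 8.84 and 7.45. Both placed the positive-labelled array lowest, next to negative replicate 3. Gfi1, a transcriptional repressor of blood progenitors, was at 10.73 against 10.30, 10.28 and 10.29, and so stood apart from all negative arrays by a small margin.

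Of 16 T cell receptor signalling genes measured, 8 lay below the negative range, 1 above it and 7 within it; their median difference was -0.24 log2 units. At least 1 log2 unit below negative replicate 1, 2 and 3 lay 1, 3 and 0 of them, and the median was -0.15 without negative replicate 3. Cd247, the zeta chain of the receptor, also used by NK cells, was at 9.13 in the positive-labelled array, against 9.65, 10.22 and 9.61 in negative replicates 1, 2 and 3. Cd6, a surface receptor of T cells, was at 5.97 against 6.64, 6.49 and 6.68, and Cd5, a damper of receptor signals, at 5.46 against 4.65, 3.91 and 3.93. Among the 4 arrays the positive-labelled one was thus the lowest for Cd247 and Cd6 and the highest for Cd5, a dim probe set, and limma gave each an adjusted p of 1.00.

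Of 17 innate lymphoid and NK genes measured, 7 lay below the negative range, 2 above it and 8 within it; their median difference was -0.55 log2 units. At least 1 log2 unit below negative replicates 1, 2 and 3 lay 6, 8 and 4 of them, and the median was -0.24 without negative replicate 2. Icos, a costimulatory receptor of T cells and group 2 innate lymphoid cells, was at 5.15 in the positive-labelled array, against 8.90, 8.39 and 7.44 in negative replicates 1, 2 and 3. Klrd1, the CD94 chain of NK receptors, was at 7.81 against 9.59, 9.09 and 9.18, and Rora, a nuclear receptor of group 2 innate lymphoid cells, at 7.0 against 8.96, 9.01 and 7.98. Rora has 9 probe sets and Icos 3, of which only the brightest on average is given. For Icos, Klrd1 and Rora alike the positive-labelled array lay below every negative array, replicate 3 included. These 3 were named for the largest absolute moderated t of their list, a choice that favours such a position. Their limma adjusted p-values were 0.869 for Icos, 0.853 for Klrd1 and 1.00 for Rora, with differences of -3.09, -1.48 and -1.65 log2 units.

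Of 12 genes of the interleukin 2 receptor family and its signalling measured, 6 lay below the negative range, 3 above it and 3 within it; their median difference was -0.14 log2 units, and -0.13 without negative replicate 3. At least 1 log2 unit below negative replicates 1, 2 and 3 lay 2, 1 and 1 of them. Il7r, the receptor that supports early lymphoid survival, was at 8.39 in the positive-labelled array, against 12.11, 11.75 and 8.89 in negative replicates 1, 2 and 3. Il15, a growth factor of NK cells that signals through Il2rb, was at 8.51 against 7.76, 7.91 and 7.82. Il9r, an interleukin 9 receptor chain, was at 3.92 against 4.69, 4.15 and 4.98. Il7r followed the arrays in the order seen for Gata3, whereas Il15 was highest in the positive-labelled array. The limma adjusted p was 1.00 for each of the 3.

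Markers of other cell types moved over the same arrays. Of 7 B lineage markers measured, 5 lay below the negative range and 0 above it, and their summed linear intensity was 3710 in the positive-labelled array, against 3694 to 18558 in the negative arrays. Of 8 macrophage markers, 4 lay below the range and 0 above it, and they summed to 3067 in the positive-labelled array and 2515 to 19377 in the negative arrays. Of 8 endothelial markers, 5 lay below the range and 1 above it, and they summed to 2647 in the positive-labelled array and 2991 to 5074 in the negative arrays. In these lists the low end of the negative range was negative replicate 3. Of 8 granulocyte markers, 0 lay below the range and 5 above it, and they summed to 49597 in the positive-labelled array and 18264 to 49176 in the negative arrays, where negative replicate 3 was the high end. Erythroid markers summed to 21095 in the positive-labelled array and 16476 to 21430 in the negative arrays, with 2 of 7 above the range and 0 below it. The part of these cell types in the differences of Gata3, Bcl11b, Thy1, Cd3g and Il2rb was not tested.

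Markers of mature T cells differed from one another in their order over the arrays. Of 7 measured, all of them also counted among the receptor signalling genes, 4 lay below the negative range, 1 above it and 2 within it, with a summed intensity of 910 in the positive-labelled array and 796 to 1419 in the negative arrays. Cd8a was at 6.19 in the positive-labelled array, against 6.44, 8.41 and 6.24 in negative replicates 1, 2 and 3, and so was high in negative replicate 2 alone. Cd4 was at 9.02 against 9.82, 9.17 and 8.87, and Cd8b1 at 4.65 against 4.85, 4.67 and 5.16. Of the mature T cell markers, Cd3d, Cd8b1 and Cd5 had means below the median level of all probe sets. LSK markers summed to 8568 in the positive-labelled array and 5673 to 7311 in the negative arrays, with 4 of 7 above the range, and hepatoblast markers to 2416 and 1672 to 2451, with 1 of 7 above it.

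**Figure D4:**
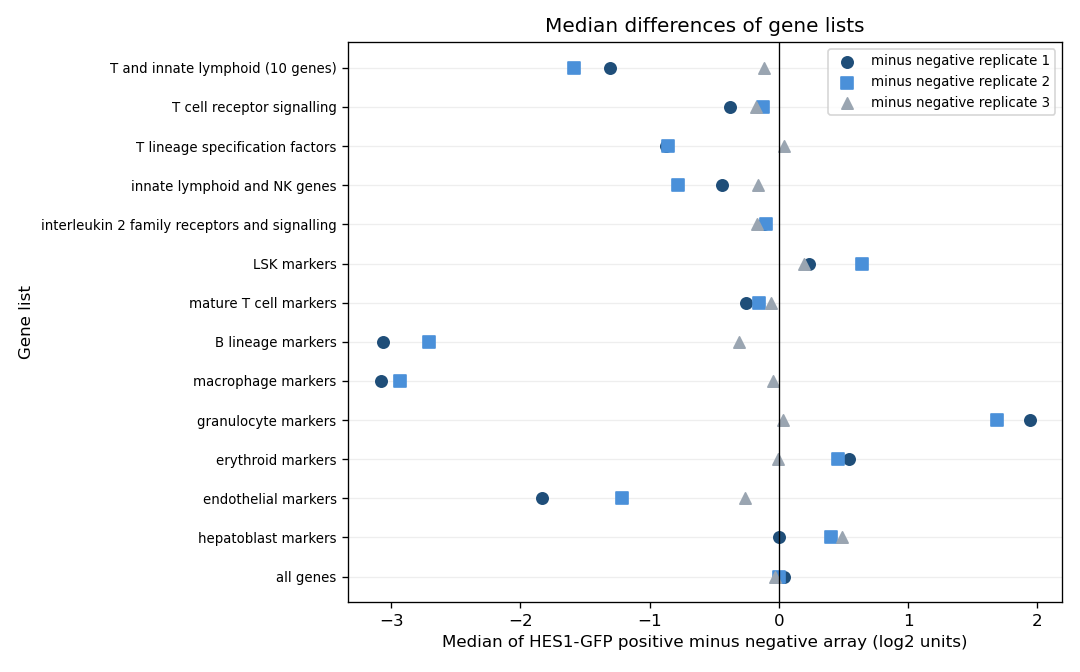
Median over the genes of each list (y axis) of the difference in log2 intensity (x axis) between the HES1-GFP positive-labelled array and each HES1-GFP negative array, 1 symbol per negative replicate. The 10 T and innate lymphoid genes stand at -1.31, -1.59 and -0.12 against negative replicates 1, 2 and 3; B lineage and macrophage markers stand further to the left and granulocyte markers to the right against negative replicates 1 and 2, and the medians of these lists lie within 0.31 log2 units of 0 against negative replicate 3.

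The genes with the most similar profiles were found as those with the smallest root mean square distance, in log2 units over the 4 arrays, after each profile was centred on its own mean. The search was run for the 7 of the 10 genes whose brightest probe set spanned at least 1 log2 unit. Only genes above the median level could be returned, so Il2ra, Il2rb, Cd3e and Ptcra could not. It describes 4 arrays only and has no test. For Gata3 the closest were Vpreb1, a surrogate light chain of the pre-B receptor, at a distance of 0.087, then Irf4 and Apoc1. For Bcl11b they were Rag1, a recombinase of antigen receptor genes, at 0.15, then St6gal1 and Ly6d, and for Cd3g they were P2ry13 at 0.25, then Tpsab1 and Tox2. Thy1 was closest to Lgmn, a lysosomal protease, at 0.10, then to Tmem108 and Lyve1.

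Il2rb was closest to Rxra at 0.022, then to Mcoln2 and Tshz3. Cd7 was closest to Pklr at 0.0083, then to Map3k5 and AA388235, and Il2ra to Gpd1 at 0.066, then to Dsel and Col9a3. Vpreb1 was at 10.54 in the positive-labelled array, against 12.77, 12.64 and 10.85 in negative replicates 1, 2 and 3, and Rag1 at 7.32 against 11.85, 11.54 and 7.20. The closest profiles to Gata3 and Bcl11b were thus those of a pre-B receptor gene and of a recombinase gene, but by small margins. Next for Gata3 were Irf4 at 0.099 and Apoc1 at 0.12, and for Bcl11b St6gal1 at 0.17 and Ly6d at 0.19. With 11015 candidates, few of them among the 10 genes, the search says nothing on how alike the 10 are.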

How the data were processed

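RNA of sorted LSK cells from 4 samples was amplified from 5 ng and hybridized to Affymetrix arrays, per the labels' protocols. The authors' deposited values are probe set intensities made with RMA, per the submitters' processing notes, for which no software version was found in the labels. The intensities run from 4.27 to 27451.5 on a linear scale, as the values themselves show, so log2 was taken with no pseudocount. Array signal over background could not be judged, since no detection calls were used here.

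Of 45101 probe sets, 64 controls were set aside, 34945 carried 1 gene symbol, 932 several and 9160 none. Symbols were updated by gene ID (34741 matched GRCm38.p6).

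The array labelled positive was compared with the 3 negative arrays in limma 3.58.1 (R 4.3.3, lmFit, eBayes). Tests were two-sided, with Benjamini-Hochberg over 45037 probe sets and 2 residual and 1.80 prior degrees of freedom. The fit was also run on simulated data with independent noise. That run checked only that planted differences were recovered on average. It did not check the calls, and it held no shift shared by the probe sets of an array. The lists used the probe set with the highest mean per gene. Text names all 10 genes, Hes1, the 3 genes per pathway list with the largest absolute moderated t, and the 3 nearest profiles per gene. Cd3d, Cd4, Cd8a, Cd8b1, Kit, Cd34, Mecom, Procr and Slamf1 were added after their values were seen. Members and lists were chosen with earlier results of these data known. The 9 alternatives changed the probe set choice, normalization, level filter, variance model, pseudocount and negative replicates.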

Additional observations from a re-analysis of the deposited data

How the results depend on the processing

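None of the probe sets of the 10 genes that were tested passed limma in any of the 9 alternatives, which tested 10 values with 1 probe set or the mean per gene, 8 with dim probe sets filtered away and 17 otherwise, and over all features limma called 0 in each, with 724 to 3275 at an unadjusted p under 0.05. Of those tested, 0 had an unadjusted p under 0.05 in 8 alternatives, and 9 of 17 had one without negative replicate 3. The count of probe sets at least 1 log2 unit below the negative range was 0 to 8 when 1 negative replicate was left out, with 8 without replicate 3, and 0 in the other alternatives. Of 130 differences under the alternatives, for single probe sets or for means over the probe sets of a gene, 129 kept their sign. Many of them could not change sign. The variance model, the level filter and the choice of 1 probe set per gene leave the difference of a probe set as it was. Zap70 1440178_x_at turned to -0.027 log2 units without negative replicate 3, in a range of -0.027 to 0.30 over the left-out replicates. The median of the T cell receptor signalling list was -0.47 once dim probe sets were filtered away. That of the interleukin 2 family list was -0.077 with averaged probe sets and -0.19 after cyclic loess. The median of the T lineage specification list was -0.77 with averaged probe sets, -0.21 with the dim ones filtered away, -0.14 without negative replicate 2 and -0.87 without replicate 3, and that of the innate lymphoid and NK list -0.24 and -0.68. The cause of these shifts was not tested. No paired analysis was possible because the groups share only 1 replicate number. With 1 array labelled positive, no spread of that group could be measured.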
